A study of Mus musculus with 7 samples.

Results

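The genes described here are 38 genes that license replication origins in G1 and fire them at the start of S phase. They were chosen by name, with earlier results of these data known. All 38 were found among the 21938 protein-coding genes of the annotation (GENCODE release M21). Chromatin was profiled by ATAC-seq: an enzyme cuts DNA where it is open and tags the cut ends for sequencing, so a peak marks accessible DNA. Endothelial cells, the lining cells of blood vessels, were sorted as living, CD31-positive and CD45-negative cells from mouse retina on postnatal day 6. Every animal carried the FUCCI reporter, a transgenic colour marker of cell cycle phase, and the labels name no treatment, strain, or number of animals per library. Unlabelled cells formed the early G1 group (3 libraries) and red cells the late G1 group (4 libraries), so the groups differ in reporter colour, by which phase was assigned. The libraries of a group were pooled before peaks were called, which leaves 1 peak list per group. No value therefore has a replicate error, no test between the groups was possible, and intervals cover counting error only.

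Replication is licensed in G1, when the origin recognition complex (Orc1 to Orc6) binds DNA and, with Cdc6 and Cdt1, loads the ring-shaped MCM helicase (Mcm2 to Mcm7) in an inactive form. Geminin (Gmnn) binds Cdt1 and blocks further loading once S phase has begun. The kinase Cdc7 with its activator Dbf4, and the factors Cdc45, GINS, Mcm10 and Topbp1, then turn the loaded rings into active helicases. RPA coats the unwound single strands, primase and polymerase alpha start each strand, and the clamp Pcna, placed by the RFC loader, holds polymerases delta and epsilon on the template. Many of these genes are textbook targets of the E2F factors, which are held back by the retinoblastoma protein until late G1, and FUCCI reporters are built on fragments of Cdt1 and geminin.

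The lists differed as wholes, and each member has to be read against that. The early G1 list held 606661 peaks over 1071.6 Mb, from 137191808 fragments, and the late G1 list held 383721 peaks over 352.4 Mb, from 124693948 fragments. Among 10 endothelial marker genes, 7 had an early and 4 a late promoter peak, against 89.6% and 59.0% of all protein-coding genes, and Pecam1, which encodes the CD31 of the sort, and Tek had none in either list. Promoter peaks in the late list were found for 4 of 6 photoreceptor, 3 of 6 retinal neuron, 5 of 6 glial and progenitor, 2 of 5 pericyte and smooth muscle, 1 of 5 leukocyte and microglial and 4 of 4 pigment epithelial marker genes. In the early list the counts, in the same order, were 6, 6, 6, 5, 4 and 3. The part of cells other than endothelium in the values below was not tested.

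Promoter sequences were examined first, since they are what the peaks lie over. A RefSeq promoter sequence (GRCm38.p6, 250 bases before to 50 after a start) was matched by symbol to 30 of the 38 genes. Gmnn, Mcm4, Gins1, Gins2, Gins4, Rfc2, Pole and Prim2 were not matched. The RefSeq start can differ from the GENCODE 5' end, and it lay 350 bp downstream for Cdc6 and 539 bp downstream for Mcm7. E2F sites were searched as the exact words TTTCCCGC, TTTGGCGC, TTTCGCGC and TTTGCCGC on both strands, where neighbouring words may overlap. Of the 30 promoters, 13 (43.3%) held an E2F word, against 487 of 16538 promoters of all protein-coding genes (2.94%). These were Orc1, Orc3, Cdc6, Cdt1, Mcm3, Mcm5, Mcm6, Mcm7, Gins3, Topbp1, Rfc3, Pola1 and Pold1. The NF-Y word CCAAT was in 20 (66.7%, against 38.8%), the Sp word GGGCGG in 23 (76.7%, against 48.2%) and the ETS word CCGGAAGT in 7 (23.3%, against 5.56%). The E-box word CACGTG was in 2 (6.67%, against 8.10%), the CRE word TGACGTCA in 2 (6.67%, against 2.42%) and the NRF1 word in 1 (3.33%, against 1.38%). A match is a description of the letters and not evidence of a bound site.

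**Figure D1:**
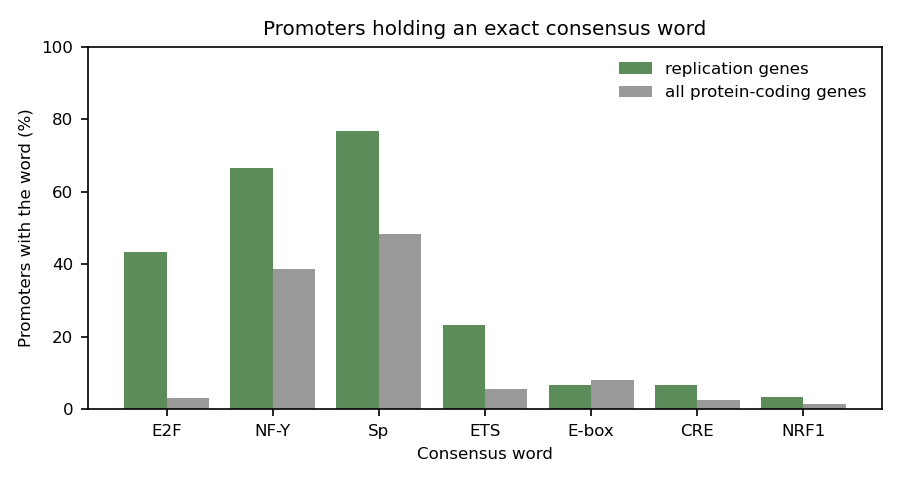
Share of promoters (vertical axis, %) that hold an exact consensus word, for the 30 replication genes with a sequence (green) and the 16538 protein-coding genes with a sequence (grey). E2F words are in 43.3% of the replication gene promoters and 2.94% of all promoters, while the E-box word is in 6.67% and 8.10%.

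The 4 sequences that follow belong to genes whose promoter had a peak in a single list and whose printed run holds an E2F word. They are shown because they carry the same kind of word while differing in which list covers them. Each is the longest run free of annotated untranslated exons within the 250 bases before the RefSeq start, written along the gene's strand on GRCm38. Capitals mark E2F and NF-Y words. Cdc6 (chr11:98907982-98908150, plus strand) was covered over 100% of this run by a late peak and not at all by an early peak. The Cdc6 run lies downstream of the GENCODE 5' end and so inside the GENCODE gene. Pola1 (chrX:93632156-93632405, minus strand) was covered over 78.8% by an early peak and not by a late peak. Orc1 (chr4:108579337-108579453, plus strand) and Topbp1 (chr9:103305083-103305214, plus strand) were covered by neither list here, since their early peaks lie elsewhere in the window.
Cdc6: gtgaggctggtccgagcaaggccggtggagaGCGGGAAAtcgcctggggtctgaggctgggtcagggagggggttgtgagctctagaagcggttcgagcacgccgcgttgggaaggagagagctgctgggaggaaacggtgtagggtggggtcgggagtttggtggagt
Orc1: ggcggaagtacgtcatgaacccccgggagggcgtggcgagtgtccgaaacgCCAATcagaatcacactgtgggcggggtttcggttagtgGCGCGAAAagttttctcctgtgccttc
Pola1: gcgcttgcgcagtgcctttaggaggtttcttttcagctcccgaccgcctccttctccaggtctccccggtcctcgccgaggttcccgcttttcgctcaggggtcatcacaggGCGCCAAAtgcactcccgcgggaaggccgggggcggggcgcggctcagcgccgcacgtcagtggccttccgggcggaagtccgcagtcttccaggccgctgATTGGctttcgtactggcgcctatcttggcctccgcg
Topbp1: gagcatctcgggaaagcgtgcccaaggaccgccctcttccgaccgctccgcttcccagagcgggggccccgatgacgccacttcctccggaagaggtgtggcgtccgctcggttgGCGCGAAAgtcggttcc

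The next 4 sequences are of the genes with peaks in both lists whose windows had the highest late coverage among those with a run of at least 60 bases, and none holds an E2F word. Both lists covered 100% of the runs of Rfc4 (chr16:23127738-23127980, minus strand), Rpa3 (chr6:8259174-8259287, minus strand) and Dbf4 (chr5:8422717-8422849, minus strand). For Rpa2 (chr4:132768110-132768334, plus strand) early peaks covered 84.0% and late peaks 84.9%. Rpa2 holds 3 NF-Y words and Rpa3 holds 2.
Rfc4: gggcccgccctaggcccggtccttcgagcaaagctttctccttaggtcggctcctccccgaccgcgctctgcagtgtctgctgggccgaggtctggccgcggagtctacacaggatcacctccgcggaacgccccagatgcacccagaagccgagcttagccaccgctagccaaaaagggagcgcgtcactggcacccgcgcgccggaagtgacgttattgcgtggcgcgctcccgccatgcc
Rpa2: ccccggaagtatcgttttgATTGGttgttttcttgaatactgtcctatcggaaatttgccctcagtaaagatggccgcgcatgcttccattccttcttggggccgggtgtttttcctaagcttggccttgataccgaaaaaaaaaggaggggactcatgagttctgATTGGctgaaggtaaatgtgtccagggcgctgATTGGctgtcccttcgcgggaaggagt
Rpa3: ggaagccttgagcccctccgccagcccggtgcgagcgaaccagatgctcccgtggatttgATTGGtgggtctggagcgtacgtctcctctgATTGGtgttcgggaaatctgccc
Dbf4: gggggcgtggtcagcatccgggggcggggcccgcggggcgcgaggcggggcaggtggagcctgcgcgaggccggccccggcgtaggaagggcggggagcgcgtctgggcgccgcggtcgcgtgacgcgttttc

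Mcm5 and Mcm6 were added, after their values were seen, as helicase subunits with peaks in both lists and the most E2F words in such a run. Mcm5 (chr8:75109259-75109508, plus strand) holds 2 overlapping E2F words, the first starting 153 bases before the RefSeq start, and its run was covered over 100% by an early and 94.0% by a late peak. Mcm6 (chr1:128359706-128359955, minus strand) holds 3 E2F words, 2 of them overlapping. Its run was covered over 15.2% by an early and 100% by a late peak.
Mcm5: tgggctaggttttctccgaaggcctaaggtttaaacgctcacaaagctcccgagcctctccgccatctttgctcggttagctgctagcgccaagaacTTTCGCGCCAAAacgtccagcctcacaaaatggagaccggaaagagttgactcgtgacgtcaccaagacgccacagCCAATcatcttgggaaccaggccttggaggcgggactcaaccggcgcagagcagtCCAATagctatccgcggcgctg
Mcm6: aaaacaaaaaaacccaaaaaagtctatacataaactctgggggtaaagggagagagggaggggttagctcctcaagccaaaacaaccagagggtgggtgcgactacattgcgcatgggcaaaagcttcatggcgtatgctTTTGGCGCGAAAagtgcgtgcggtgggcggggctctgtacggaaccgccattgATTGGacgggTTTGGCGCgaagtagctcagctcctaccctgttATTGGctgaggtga

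The E2F words themselves lay under peaks of the early list for 12 of 19 words and under peaks of the late list for 10 of 19. By gene, early peaks covered at least 1 word in 8 of 13 genes, and late peaks did so in 5 of 13. Over all 487 promoters with an E2F word the shares were 70.4% and 46.6%. The late-covered genes were Cdc6, Mcm3, Mcm5, Mcm6 and Mcm7. The words of Orc1, Topbp1 and Gins3 were covered in neither list. An E2F word was found in 7 of the 20 sequenced members with a late promoter peak and in 6 of the 10 without one. Over all promoters the shares ran the other way, with 3.48% of those with a late peak and 2.15% of those without. Base composition was compared too. The median GC content of the 30 promoters was 62.7%, against 57.0% over all promoters, and the median number of CpG dinucleotides was 24, against 14. The members with and without a late promoter peak had medians of 23.5 and 26.5 CpG dinucleotides, whereas over all genes the medians were 18 and 8.

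A gene's promoter was taken as the window within 1 kb of its GENCODE 5' end, and a gene had a promoter peak where at least 1 bp of a peak lay in that window. A promoter peak was found in the early list for 35 of 38 replication genes (92.1%, exact Clopper-Pearson 95% interval 78.6 to 98.3), against 89.6% of all protein-coding genes. It was found in the late list for 24 (63.2%, 46.0 to 78.2), against 59.0%. The combination gave 21 genes with a peak in both lists (55.3%, 38.3 to 71.4; all genes 54.8%) and 14 with one in the early list only (36.8%, 21.8 to 54.0; all genes 34.8%). There were 3 genes with a peak in the late list only (7.89%, 1.66 to 21.4; all genes 4.21%) and 0 with none in either (up to 9.25% by the same interval; all genes 6.24%). Every one of these intervals includes the share over all genes. The early list covered more of the genome, which bears on each early-only state.

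**Figure D2:**
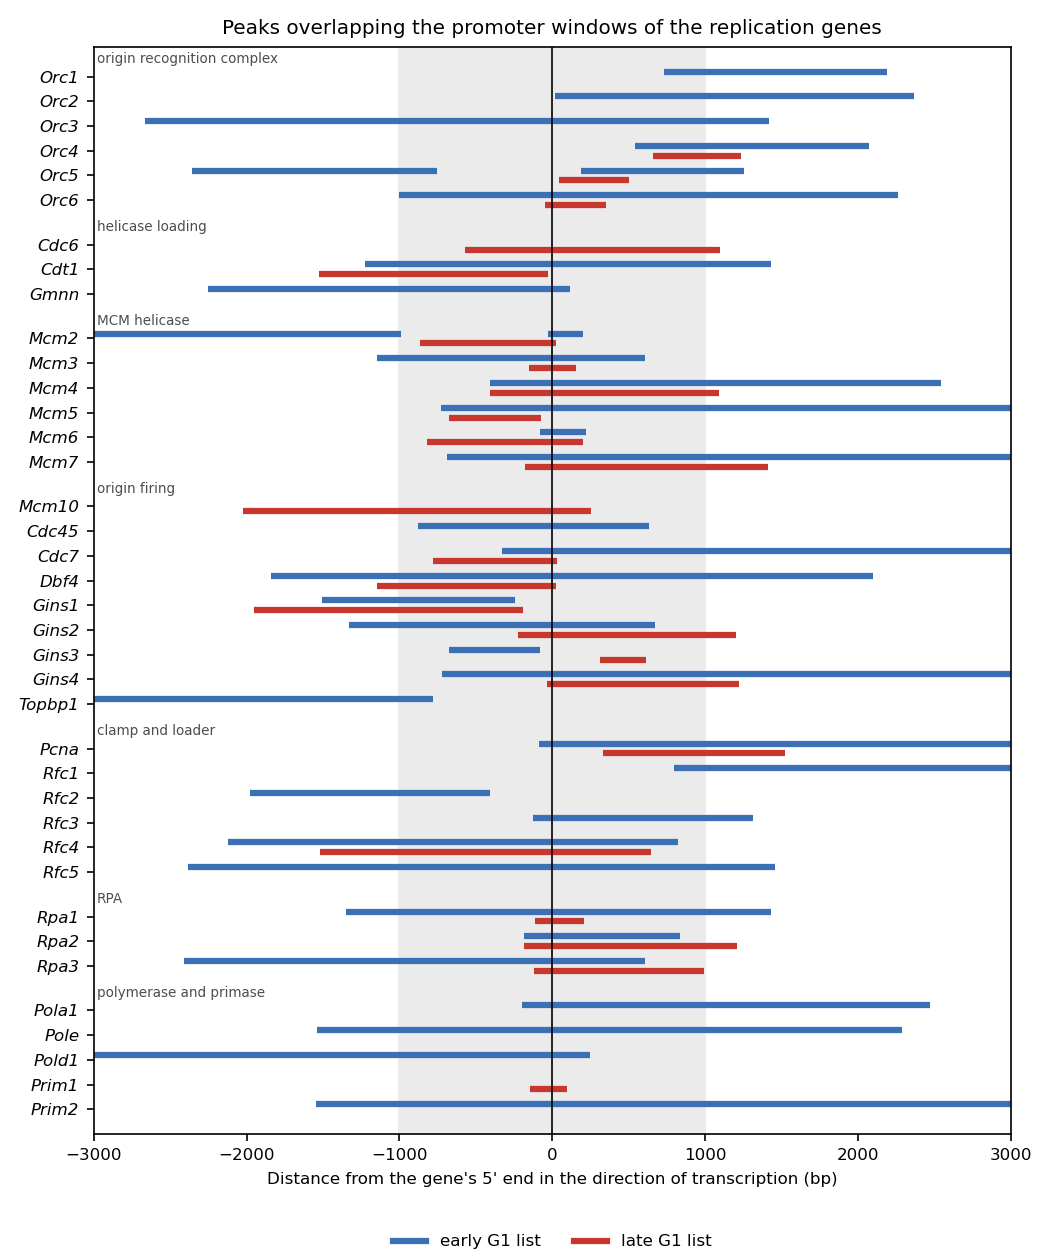
Peaks of the early G1 list (blue) and of the late G1 list (red) that overlap the window within 1 kb of the 5' end (grey band) of each replication gene, by distance from the 5' end in bp along the direction of transcription, with peaks cut off at the plot's edges. All 6 helicase genes have a peak in both lists, and Pola1, Pole, Pold1 and Prim2 have none in the late list.

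The states followed different patterns from role to role, described here by counts that are too small for more. Both lists had a promoter peak at all 6 MCM helicase genes, all 4 GINS genes and all 3 RPA genes, a state that 54.8% of all protein-coding genes shared. Of the 5 polymerase and primase genes, 0 had peaks in both, 4 were early only (34.8% of all genes) and 1 (Prim1) was late only (4.21%). Among the 6 clamp and clamp loader genes, 2 had peaks in both and 4 were early only. The origin recognition complex was divided, with 3 of 6 genes in each of these states. These patterns depended on the threshold and the window. With peaks above the median score of each list, peaks in both lists were left at 2 of 6 helicase genes (Mcm4 and Mcm7), at Gins2 of the GINS genes and at Rpa3 of the RPA genes. Within 3 kb, peaks in both lists were found at 33 of 38 genes, including 5 of 6 origin recognition genes, 5 of 6 clamp and loader genes and 3 of 5 polymerase and primase genes, against 82.4% of all genes.

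**Figure D3:**
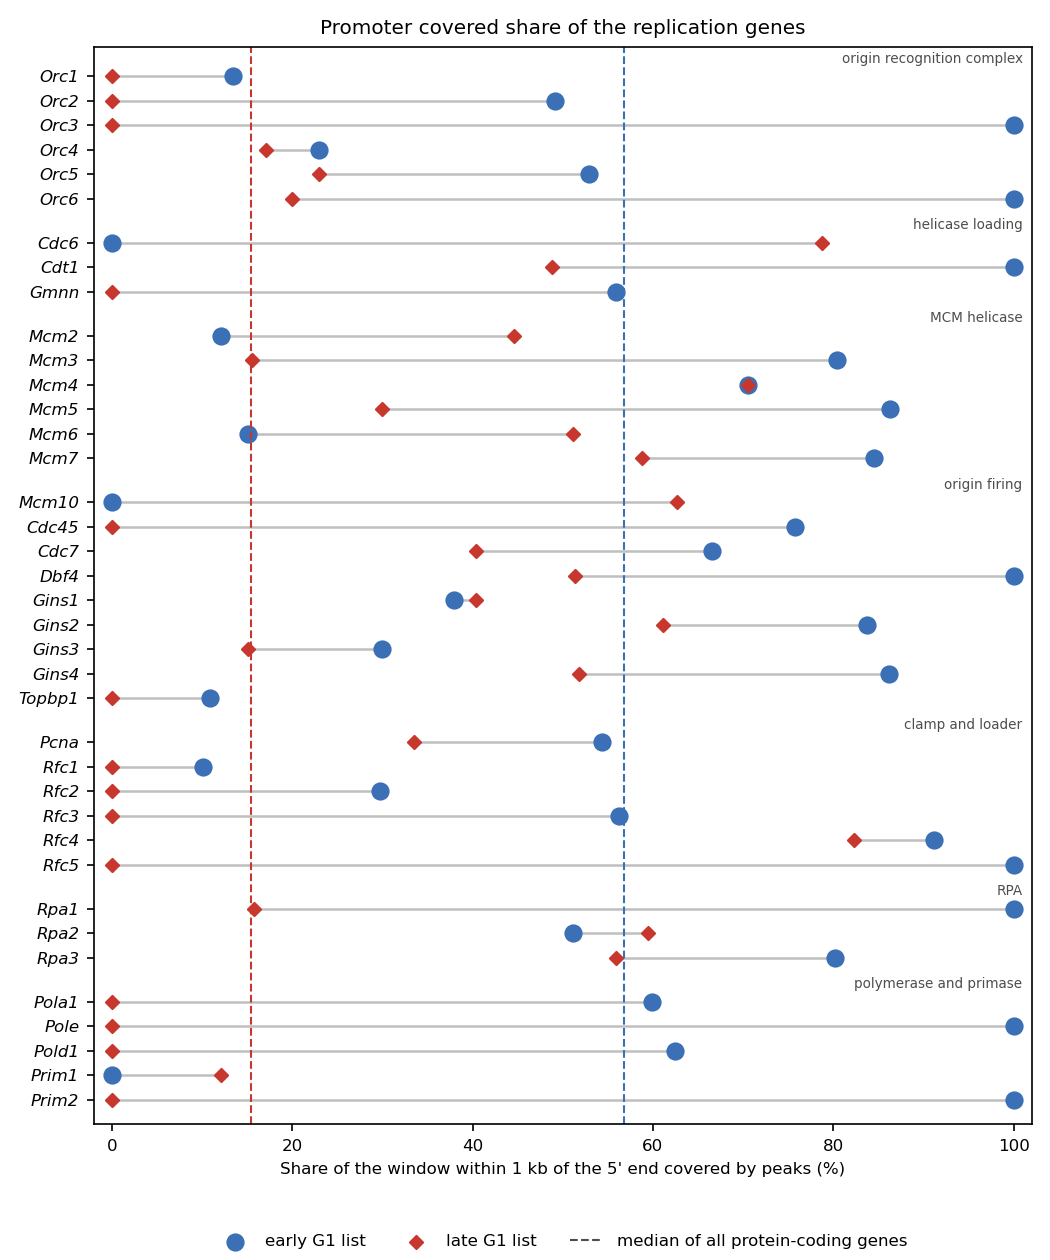
Share of the promoter window covered by peaks (horizontal axis, %) for each replication gene in the early G1 list (blue circles) and the late G1 list (red diamonds), with the medians of all protein-coding genes as dashed lines in the same colours (56.8% early and 15.4% late). Most genes lie further right in the early list, and Cdc6, Mcm2, Mcm6, Mcm10, Gins1, Rpa2 and Prim1 lie further right in the late list.

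Late coverage of the origin recognition complex genes was at most 23.0%. Orc1, the subunit that is most tightly regulated through the cell cycle (5' end at chromosome 4, 108579423), had early peaks over 13.4% of its window and no late peak, and the early peak began 732 bp downstream of the 5' end. Orc2 (chromosome 1, 58505109) had 49.1% and 0%, with an early peak that began 18 bp downstream. Orc3 (chromosome 4, 34614944) had 100% and 0%. The other subunits had peaks in both lists. Coverage was 23.0% early and 17.1% late for Orc4, 52.9% and 23.0% for Orc5, and 100% and 20.0% for Orc6. Only Orc6 was covered at the 5' end itself in the late list, by a peak 400 bp wide. Orc5 had a late peak 460 bp wide with a fold enrichment over local background of 6.20, a value the authors' peak caller assigned. That peak began 42 bp downstream of the 5' end. Within 500 bp, the late coverage of Orc5 exceeded the early by 14.5 percentage points.

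The loading factors were in 3 different states. Cdc6 (chromosome 11, 98907801), an ATPase that takes part in loading the helicase, had no early promoter peak. Its late peak covered 78.7% of the window and ran from 574 bp upstream to 1095 bp downstream. That peak was weak, with a fold of 2.05. Within 3 kb, early coverage exceeded late coverage for this gene, and the difference was -3.43 percentage points. Cdt1 (chromosome 8, 122568015), the partner that delivers the helicase and the source of the G1 reporter fragment, was covered over 100% early and 48.8% late. Its late peak (fold 4.74) ended 25 bp upstream of the 5' end and so lay wholly upstream, while the early peak (fold 2.13) spanned the 5' end. Among the peaks above the median score of each list only the late one was left, which turned the difference to 48.8 percentage points. Gmnn (chromosome 13, 24761923), the inhibitor of Cdt1, had early peaks over 55.9% of the window, mostly upstream, and no late peak.

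In 5 of the 6 MCM helicase genes (not Mcm5) the late peak covered the 5' end base, against 32.4% of all genes. In Mcm5 it ended 76 bp upstream. Early coverage ranged from 12.1% to 86.3% and late coverage from 15.5% to 70.5%. Mcm4 (chromosome 16, 15637400) had the highest late coverage, 70.5% in both lists, and both of its peaks began 410 bp upstream. Mcm7 (chromosome 5, 138172422) had 84.5% early and 58.8% late, and the strongest late peak of the helicase genes (fold 4.82, pileup 82.1). Mcm2 (chromosome 6, 88898780) and Mcm6 (chromosome 1, 128359664) were covered more in the late list, with 12.1% early and 44.6% late for Mcm2 and 15.0% and 51.1% for Mcm6. Both of these differences turned when peaks above the median score of each list were used, to -0.45 and -15.0 percentage points. The cut lay at a score of 2.98 early and 15.5 late, and the late peaks of Mcm2 and Mcm6 scored 5.04 and 4.82. Mcm3 had 80.4% and 15.5%, with a late peak 310 bp wide centred on the 5' end, and Mcm5 had 86.3% and 30.0%.

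Both lists had promoter peaks for 6 of the 9 firing genes, against 54.8% of all genes. The kinase gene Cdc7 (66.6% early, 40.4% late) and its activator gene Dbf4 (100%, 51.3%) both had late peaks that lay mostly upstream and ended 29 and 26 bp past the 5' end. The GINS genes, which encode the complex that rides with the active helicase, ranged widely. Gins2 (chromosome 8, 120589304) had 83.8% early and 61.1% late coverage, and its late peak had a fold of 7.41 and a pileup of 124. Gins4 had 86.2% and 51.8%, Gins1 38.0% and 40.4%, and Gins3 30.0% and 15.0%. The Gins1 difference turned to -38.0 percentage points with peaks above the median score. For Gins1 both peaks ended upstream of the 5' end, and for Gins3 the early peak lay upstream and the late peak downstream, without contact. Mcm10 (chromosome 2, 5012791), a scaffold of the active helicase, had no early promoter peak and a late peak over 62.7% of its window, which reached 2023 bp upstream (fold 2.15). That peak was weak, with a score of 3.23, and was not left with peaks above the median score. Cdc45 (chromosome 16, 18811987), a subunit of the active helicase, and Topbp1 (chromosome 9, 103305215), which helps recruit it, had early peaks only. Their early coverage was 75.8% and 10.9%, but within 3 kb the late coverage of Cdc45 exceeded the early by 4.45 percentage points.

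Late promoter peaks were found at 2 of the 6 clamp and clamp loader genes, against 59.0% of all genes. Pcna (chromosome 2, 132253314), the sliding clamp, had 54.3% early and 33.5% late coverage, and the late peak began 330 bp downstream of the 5' end. Rfc4 (chromosome 16, 23127737) had the highest late coverage of all 38 genes, 82.3%, with 91.2% in the early list, although its late peak was weak (fold 2.56). The other loader subunits had early peaks only. Their early coverage was 10.1% for Rfc1, 29.7% for Rfc2, 56.2% for Rfc3 and 100% for Rfc5. The peaks of Rfc1 and Rfc2 did not reach the 5' end.

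All 3 RPA genes had peaks at the 5' end in both lists, against 24.5% of all genes. Rpa3 (chromosome 6, 8259173), the smallest subunit, carried the strongest late promoter peak of the replication genes, with a fold of 12.4 and a pileup of 156. Its pileup ranked at the 93.4th percentile of the 12936 genes with a late promoter peak. Coverage of Rpa3 was 80.2% early and 55.9% late. Rpa1 had 100% and 15.8%, with a late peak 316 bp wide over the 5' end. Rpa2 had 51.2% and 59.4%, and that difference turned to -29.9 percentage points when all of its annotated start sites were used and to -51.2 with peaks above the median score.

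Of the 5 polymerase and primase genes, 1 (Prim1) had a late promoter peak, against 59.0% of all genes. Pola1 (chromosome X, 93632155; the catalytic subunit of polymerase alpha), Pole (chromosome 5, 110286306; that of polymerase epsilon) and Pold1 (chromosome 7, 44548849; that of polymerase delta) had early coverage of 59.9%, 100% and 62.4% and no late promoter peak. Prim2 (chromosome 1, 33669795), the large primase subunit, had 100% and 0%. Prim1 (chromosome 10, 128015168), the catalytic primase subunit, had no early peak and a late peak 242 bp wide over the 5' end, which covered 12.1% of the window. With peaks above the median score of each list, 3 of the 5 genes (Pola1, Prim1 and Prim2) had no promoter peak in either, against 31.4% of all genes. Pole and Pold1 kept their early peaks.

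Over the 38 genes, median promoter coverage was 61.1% early and 18.6% late, against 56.8% and 15.4% over all protein-coding genes. The median difference, late minus early, was -27.9 percentage points for the replication genes and -32.2 for all genes. Late coverage exceeded early coverage in 7 of 38 genes (18.4%), against 17.9% of all genes. The early list covered the whole window in 8 of 38 (21.1%), namely Orc3, Orc6, Cdt1, Dbf4, Rfc5, Rpa1, Pole and Prim2, against 18.5% of all genes. By these measures the replication genes were close to the average gene in each list.

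The 5' end base itself was covered in the early list for 26 of 38 genes (68.4%, 51.3 to 82.5), against 62.4% of all genes. In the late list it was covered for 17 (44.7%, 28.6 to 61.7), against 32.4%. Of the members with a late promoter peak, 17 of 24 (70.8%) had it over the 5' end, and over all genes the share was 54.9%. The intervals include the shares over all genes. Coverage from 5 to 10 kb away served as the surroundings. In the late list the replication genes had 44.7% of 5' ends covered and 12.7% of their surroundings, a ratio of 3.52, against 32.4% and 14.8%, a ratio of 2.19, for all genes. In the early list the ratios were 1.55 and 1.43. Each of the 38 genes moves such a share by several points, so the profile is coarse.

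**Figure D4:**
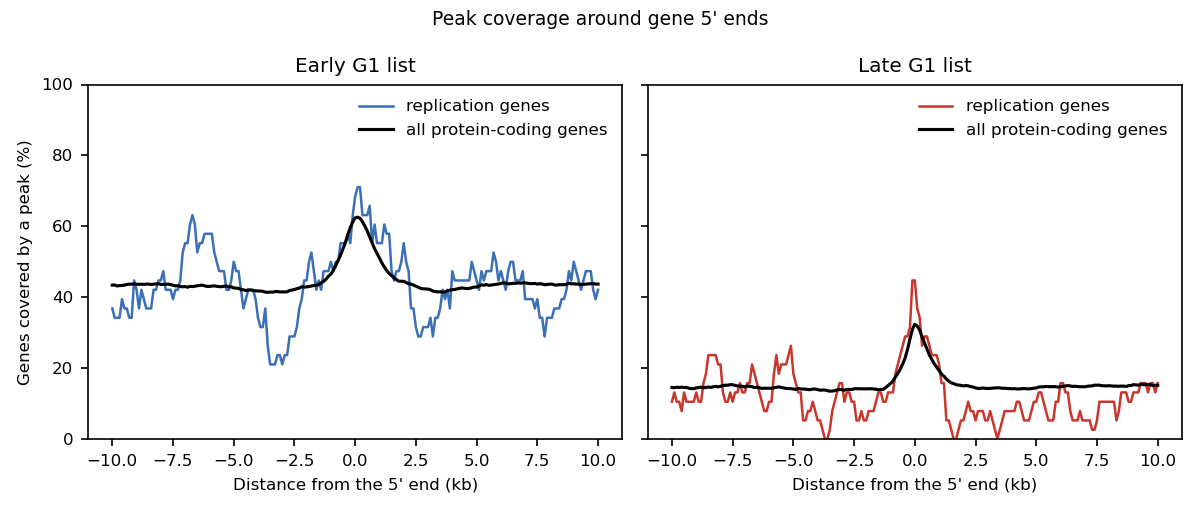
Share of genes covered by a peak (vertical axis, %) by distance from the 5' end in kb (negative is upstream), for the 38 replication genes (coloured) and all protein-coding genes (black) in the early G1 list on the left and the late G1 list on the right. At the 5' end the coloured lines reach 68.4% and 44.7%, and the black lines 62.4% and 32.4%.

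Late promoter peaks of the replication genes were of modest strength for that list. The pileup is the authors' mean number of fragments over a peak, not scaled to depth, and is ranked here only within a list. The 24 genes with a late promoter peak had a median pileup of 28.1 and a median fold of 2.56, against 40.4 and 3.15 over all genes with such a peak. A fold of at least 4 was reached by 6 of 24 (25.0%), against 37.3% of all genes with a late promoter peak. These 6 were Rpa3, Gins2, Orc5, Mcm7, Cdt1 and Dbf4. In the early list the 35 genes had a median pileup of 30.4 and a median fold of 2.18, against 29.7 and 2.14, and 0 of 35 reached a fold of 4, against 0.117% of all genes with an early promoter peak. The highest early pileups were those of Gins2 (46.7), Orc4 (46.0) and Gins4 (44.4). Early promoter peaks had a median width of 2748 bp and late ones of 1148 bp. Over all peaks of each list, wherever they lay, the medians were 1334 bp early and 681 bp late.

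**Figure D5:**
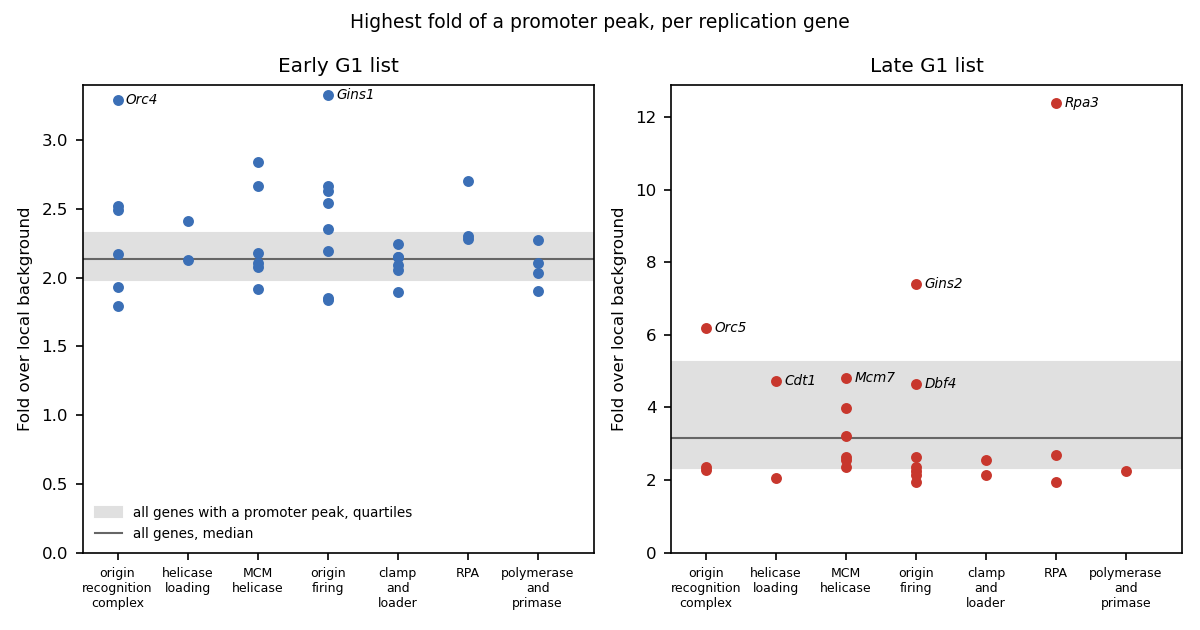
Highest fold over local background of a promoter peak (vertical axis, linear, different ranges) for each replication gene with one, by role, in the early G1 list on the left and the late G1 list on the right, with the quartiles and median of all protein-coding genes with a promoter peak in grey. Rpa3 (12.4), Gins2 (7.41) and Orc5 (6.20) stand above the grey band in the late list.

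Over gene bodies the replication genes resembled the average gene. The median body was 18108 bp long, with 42.8% covered early and 13.3% late, against 45.7% and 13.9% over all protein-coding genes. The median number of peaks over a body was 5 early and 3 late in both sets. Early coverage was highest for Pcna (76.8% of 4153 bp), Mcm7 (65.3%) and Mcm5 (63.3%) and lowest for Gmnn (10.5%), Gins1 (11.0%) and Pola1 (16.0% of 327389 bp). Late coverage was highest for Gins2 (38.0%), Mcm7 (33.2%) and Rpa3 (30.8%), and lowest for Cdt1 (0%), Dbf4 (0.105%) and Mcm6 (0.73%). Gins2 and Gins1 had more of the body covered in the late list than in the early list, at 20.9% early for Gins2 and 12.7% late for Gins1. Prim2, at 215986 bp, held 51 early and 38 late peaks although its promoter had none in the late list.

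Divergent promoters were frequent among the replication genes. A protein-coding gene on the other strand began within 1 kb upstream, or at most 200 bp downstream, of the 5' end in 10 of 38 genes (26.3%), against 7.94% of all protein-coding genes. These pairs were Orc1 with Prpf38a, Orc3 with Rars2, Orc6 with Vps35, Mcm4 with Prkdc, Dbf4 with Slc25a40, Gins1 with Abhd12, Topbp1 with 1300017J02Rik, Rpa1 with Smyd4, Rpa3 with Umad1 and Pole with Pxmp2. A late promoter peak was present in 6 of these 10 genes and in 18 of the other 28. In such a pair, lying in the window does not show which gene a peak serves. Both Gins1 peaks spanned the start of Abhd12, 659 bp upstream, and did not reach the Gins1 5' end. The early Topbp1 peak lay beyond the start of 1300017J02Rik, and the early Orc1 peak lay inside Orc1. For Rpa3 the 5' ends were 115 bp apart, so its strong late peak lies at the start of Umad1 as well.

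A further list of 43 genes of fork progression, strand maturation, nucleotide supply and chromatin assembly was examined in the same way. Of these, 27 had promoter peaks in both, 13 were early only, 1 was late only and 2 had none. Over all genes the shares were 54.8%, 34.8%, 4.21% and 6.24%. Median coverage was 64.4% early and 16.1% late, against 56.8% and 15.4% over all genes. Chaf1a, the large subunit of the histone chaperone CAF-1, was the 1 gene with a late peak only, over 16.9% of its window. Atad5, which unloads the clamp, and Pold2, the second subunit of polymerase delta, had no promoter peak in either list. The early-only genes included Clspn, a fork checkpoint adaptor (45.3%), Dnmt1, the maintenance DNA methyltransferase (52.6%), Mtbp, a partner of the firing factor Ticrr (38.9%), and Pola2, the second subunit of polymerase alpha (100%). Of the accessory polymerase genes, picked out after their values were seen, Pola2, Pole2, Pole4 and Pold4 were early only, a state of 34.8% of all genes. Pole3 (51.0% late) and Pold3 (16.4% late) had peaks in both, and Pold2 had none.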

How the data were processed

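ATAC-seq of 7 libraries was summarised by the authors as 2 broad peak lists, 1 per group, and the deposited lists are the start of everything here. Per the file headers, peaks were called with MACS2 2.2.7.1 on 1 merged fragment file per group, without a control, with all duplicates kept, with a q-value cutoff of 0.05 (0.1 for broad regions) and a background over 10000 bp. Trimmomatic, STAR, bedtools and mm10 are named in the submitters' processing notes. The deposited pileup is a signal not scaled to depth, and the deposited fold is a ratio to local background. The deposited -log10 q-value served as the score; its heading was damaged, and it was identified from the caller's column order. Broad calling joins neighbouring regions, and kept duplicates can raise a pileup.

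The reference was GRCm38, the same build as mm10, and no peak ran past a chromosome end. Genes were those of GENCODE M21 on the autosomes, X and Y. Counts of peaks, covered bases and the highest pileup were computed per window, and shares have exact Clopper-Pearson 95% intervals. No test between groups was possible. Alternatives were peaks above the median score of each list, 191860 strongest peaks per list, windows of 500 bp and 3 kb, all start sites, a minimum of 25% coverage, coverage of the 5' end base, and bodies without their first 1 kb. In the late list the above-median peaks and the 191860 strongest peaks are the same set. For words, 200 bp on either side and 1 E2F word were tried.

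All members are named. Values were given for promoter states other than both, for the extremes of coverage, difference and pileup, and always for Cdt1 and Gmnn. Of the other 43 genes, those late only or in neither were named, with 4 early-only genes by name order; further ones were chosen after their values were seen. Chtf8 has overlapping annotated genes, and the first was used. The members and lists were chosen with earlier results of these data known. The interval search gave 0 wrong answers in 2500 simulated intervals, and the word search 0 in 2100 simulated cases. The work was done in Python 3.11.15 with matplotlib 3.10.9, SciPy 1.17.1, pandas 2.3.3 and NumPy 2.4.6.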

Additional observations from a re-analysis of the deposited data

How the results depend on the processing

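No paired analysis was possible because each group is 1 pooled list, and no library could be left out for the same reason. A count was taken as moved past 1.5 times, a covered share past 10 percentage points and a pileup past 1.5 times; no cause was tested except where a setting shortens the lists or changes the window. With peaks above the median score of each list, the members were 6 in both, 1 late only and 10 in neither (all genes 14.7%, 9.26% and 31.4%), and with equal numbers of strongest peaks 6, 1 and 18 (10.0%, 13.9% and 46.1%). In these settings the late-only gene was Cdt1, and Cdc6, Mcm10 and Prim1 had no late promoter peak. Within 3 kb they were 33 in both, 5 early only and 0 late only (82.4%, 15.7% and 0.921%). Within 500 bp 4 were in neither (13.1%). With 25% of the window covered 13 were in both and 5 in neither (33.9% and 16.1%), and with the 5' end base covered 9 were in neither (29.7%). With the above-median peaks, the 43 other genes were 12 in both, 20 early only, 5 late only and 6 in neither (all genes 14.7%, 44.6%, 9.26% and 31.4%). With equal numbers they were 10 in both, 7 late only and 13 in neither (10.0%, 13.9% and 46.1%). At 25% they were 15 in both, 23 early only and 4 in neither (33.9%, 44.0% and 16.1%). At the 5' end base they were 11 in both, 23 early only, 2 late only and 7 in neither (24.5%, 37.9%, 7.9% and 29.7%). Within 500 bp 4 were in neither (13.1%), and within 3 kb 0 were late only and 0 in neither (0.921% and 0.957%). With all start sites 8 were early only, 0 late only and 1 in neither (28.4%, 3.07% and 4.29%).

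Median early promoter coverage was 7.52% with equal numbers, 72.3% within 500 bp and 46.6% within 3 kb. Median late coverage was 0% with the above-median peaks and with equal numbers and 30.9% within 500 bp. The median late pileup was 82.1 with the above-median peaks and with equal numbers, and 51.4 within 3 kb. Median early body coverage was 21.7% and 13.7% with the above-median peaks and equal numbers. The single E2F word TTTCCCGC was in 7 of 30 member promoters (23.3%), against 1.51% of all promoters. The late minus early difference of single genes turned in these cases, in percentage points. With the above-median peaks it was 48.8 for Cdt1, -0.45 for Mcm2, -15.0 for Mcm6, -38.0 for Gins1 and -51.2 for Rpa2, and with equal numbers 48.8 for Cdt1, -15.0 for Mcm6, -38.0 for Gins1 and -51.2 for Rpa2. Within 500 bp it was 14.5 for Orc5. Within 3 kb it was -3.43 for Cdc6, -22.5 for Mcm2, 4.45 for Cdc45, -0.117 for Gins1 and -24.9 for Rpa2, and with all start sites -29.9 for Rpa2. In the late list the above-median peaks and the equal numbers are the same peaks, so their late values are identical by construction. They left late promoter peaks at Orc5, Cdt1, Mcm4, Mcm7, Dbf4, Gins2 and Rpa3.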

Other observations

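Among the 43 other replication genes, chosen after their values were seen, 5 had the strongest late promoter peaks. The fold over local background was 17.0 for Chaf1a, 12.7 for the flap nuclease gene Fen1, 11.4 for the DNA ligase gene Lig1, 10.3 for Donson, which helps build the active helicase, and 8.67 for the fork protection gene Timeless. Each of these peaks covered a small to moderate part of its window, from 7.85% for Lig1 to 37.1% for Donson. Fen1 trims and Lig1 joins the fragments of the lagging strand. Their early promoter coverage was 51.1% and 100%. Dscc1, part of an alternative clamp loader, had late peaks over 100% and early peaks over 21.0% of its window, the highest late coverage of the 43.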
